A study of Mus musculus with 7 samples.

Results

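Genes of the Wnt signalling pathway were examined in basal cells sorted from mouse mammary glands on day 2 of lactation. The list of 36 genes holds Wnt ligands, their Frizzled and LRP receptors, the R-spondins and LGR receptors, the ZNRF3 and RNF43 ubiquitin ligases, secreted inhibitors, TCF and LEF transcription factors and intracellular feedback inhibitors. Each was looked up by its symbol among the 56440 gene models of the deposited table, and 35 were matched. Rnf43 was not, because its symbol is given there only jointly with that of another gene. The 3 a3a6KO libraries are from mutants of integrins α3 and α6, receptors for laminin, and their sample titles call them a double knockout and Blg positive. The 4 Ctrl libraries came from controls marked Blg negative. Blg is understood here as a Cre recombinase under the beta-lactoglobulin promoter, active in milk-secreting luminal cells, so that the sorted basal cells are neighbours of the targeted cells. Blg and the integrin genotype cannot be told apart, since every mutant and no control carried it. Strain and age are not given in the labels used here. The submitters call the libraries biological replicates, but nothing ties each to a separate animal, so p-values measure the spread between these libraries. The labels number no replicates, and the numbers used here follow accession order and pair no libraries.

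Wnt proteins are secreted lipid-modified ligands that bind Frizzled receptors, and those that use the LRP5 or LRP6 co-receptor stabilise β-catenin, which then works with TCF and LEF factors at target genes. R-spondins bind LGR receptors and take the ligases ZNRF3 and RNF43 off the membrane, so that more Frizzled stays there. In the mammary gland, basal cells are known to respond to Wnt signals, and luminal cells that sense progesterone are a known source of Wnt4.

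The values are normalised read counts, which the authors obtained by dividing each library's counts by a DESeq2 size factor, and they hold 9368418 to 21548279 recovered reads per library. Depth was lowest in a3a6KO replicates 3 (9368418 reads) and 2 (10861835). The third mutant library, a3a6KO replicate 1, had 18454773, and the Ctrl libraries had 14480615 to 21548279. Levels of different genes of the list were compared only per kb of exon, while marker sums and marker means were not scaled by exon length. The sorted cells carried high basal marker sums (12 genes, 908499 to 1012730 in a3a6KO and 807125 to 1089350 in Ctrl). Acta2, with a mean of 580046 over all libraries, weighed most in this sum. Of the 12 basal markers, 4 had fold changes above 0 and 8 below. The summed 14 endothelial markers ran from 10588 to 15077 in a3a6KO and from 5366 to 8233 in Ctrl, with all 14 means higher in a3a6KO, and the 10 pericyte markers from 2968 to 4041 in a3a6KO and from 1865 to 3437 in Ctrl, with all 10 means higher. The summed 15 luminal markers, which include milk proteins, ran from 104527 to 365966 in a3a6KO and from 136444 to 826166 in Ctrl. By library the luminal sum was 104527, 169336 and 365966 in a3a6KO and 195132, 136444, 635495 and 826166 in Ctrl. Ctrl replicates 1 and 2 thus lay below Ctrl replicates 3 and 4. The part of luminal content in the values of the listed genes was not tested. The 12 fibroblast markers summed to 22179 to 32318 in a3a6KO and 17519 to 28777 in Ctrl, and the 12 immune markers to 447 to 1016 in a3a6KO and 260 to 1054 in Ctrl. The 6 adipocyte markers summed to 8522 to 20348 in a3a6KO and 3366 to 19623 in Ctrl. Lep had the highest mean of these and weighed most in the sum, with 12161 in a3a6KO and 7394 in Ctrl. It was the only 1 of the 6 with a fold change above 0, and the other 5 had fold changes below 0. The 7 Schwann and nerve markers summed to 1151 to 1605 in a3a6KO and 1043 to 2534 in Ctrl, with Foxd3 at 0 in all libraries, while no marker of the other lists was at 0 throughout. In such bulk samples, fewer cells of a type and less RNA per cell cannot be told apart. The targeted genes themselves were present in both groups, with means of 631 ± 168 (SD, n = 3) in a3a6KO and 595 ± 113 (SD, n = 4) in Ctrl for Itga3 and of 8667 ± 379 in a3a6KO and 9346 ± 1356 in Ctrl for Itga6.

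The pathway was led by a receptor and a secreted inhibitor. Per kb of exon, Sostdc1 had the highest level over all 7 libraries (3338 normalised counts per kb), followed by Fzd7 (2377), Lgr4 (538), Wnt10a (382), Wnt6 (371), Dkk3 (352) and Fzd1 (340.2). At the other end, Lef1 was at 0 in every library and Rspo3 had at most 6 reads in a library. Of the 35 matched genes, 32 passed the filter on low values (at least 10 in at least 3 libraries) and were tested, and Lef1, Rspo3 and Dkk2 were not.

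**Figure D1:**
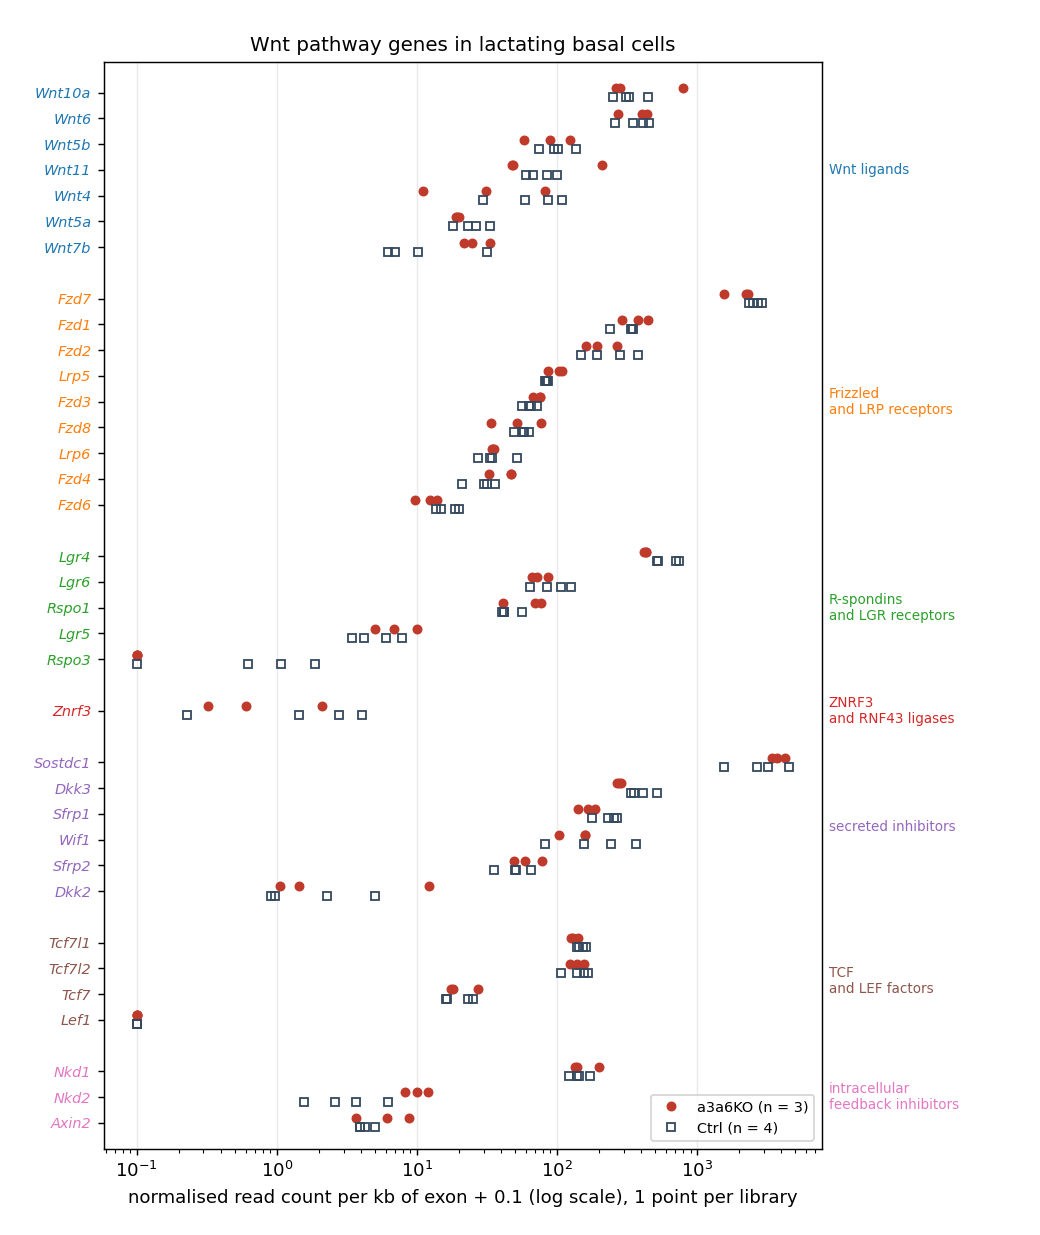
Levels of the 35 matched genes by role, in normalised counts per kb of exon plus 0.1 on a log axis; each filled circle is a library of a3a6KO (n = 3) and each open square a library of Ctrl (n = 4). Sostdc1 and Fzd7 lie highest, at 3338 and 2377 per kb over all libraries, and Lef1 lies at 0 throughout.

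No tested gene of the list differed between a3a6KO and Ctrl at an adjusted p under 0.05. The limma test on log2(value + 1), adjusted over the 16889 genes tested, called 0 of the 32 (background 0% of all genes). With edgeR 0 were called (0 of all genes it tested), and with DESeq2 0 (background 0.456%, 77 genes). DESeq2 gave no adjusted p for Nkd2, Znrf3 and Axin2, so it could not call them. Its background is a share of all 16889 genes, with or without an adjusted p. At an unadjusted p under 0.05, limma held 6 of the 32, or 18.75%, against a background of 6.32% of all genes. The counts were 5 with edgeR and 6 with DESeq2. The 6.32% holds for limma with all libraries. Shares over all genes at this unadjusted p are not given for edgeR, DESeq2 or fits without a library. Those counts can therefore not be set against a background. The 6 were Nkd2, Wnt7b and Fzd4, with higher values in a3a6KO, and Lgr4, Dkk3 and Sfrp1, with lower values. In 4 of the 32, or 12.5%, the values of the groups did not overlap (Nkd2 above, Lgr4, Dkk3 and Fzd7 below), against 7.51% of all genes. Of the 32 fold changes, 16 were above 0 and 16 below, with a median of 0.01 on the log2 scale against −0.004 for all genes tested, and their median size without sign was 0.33 against 0.20. No test was made of the list as a whole. Leaving out Ctrl replicate 2 lowered the count of 6 to 3.

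**Figure D2:**
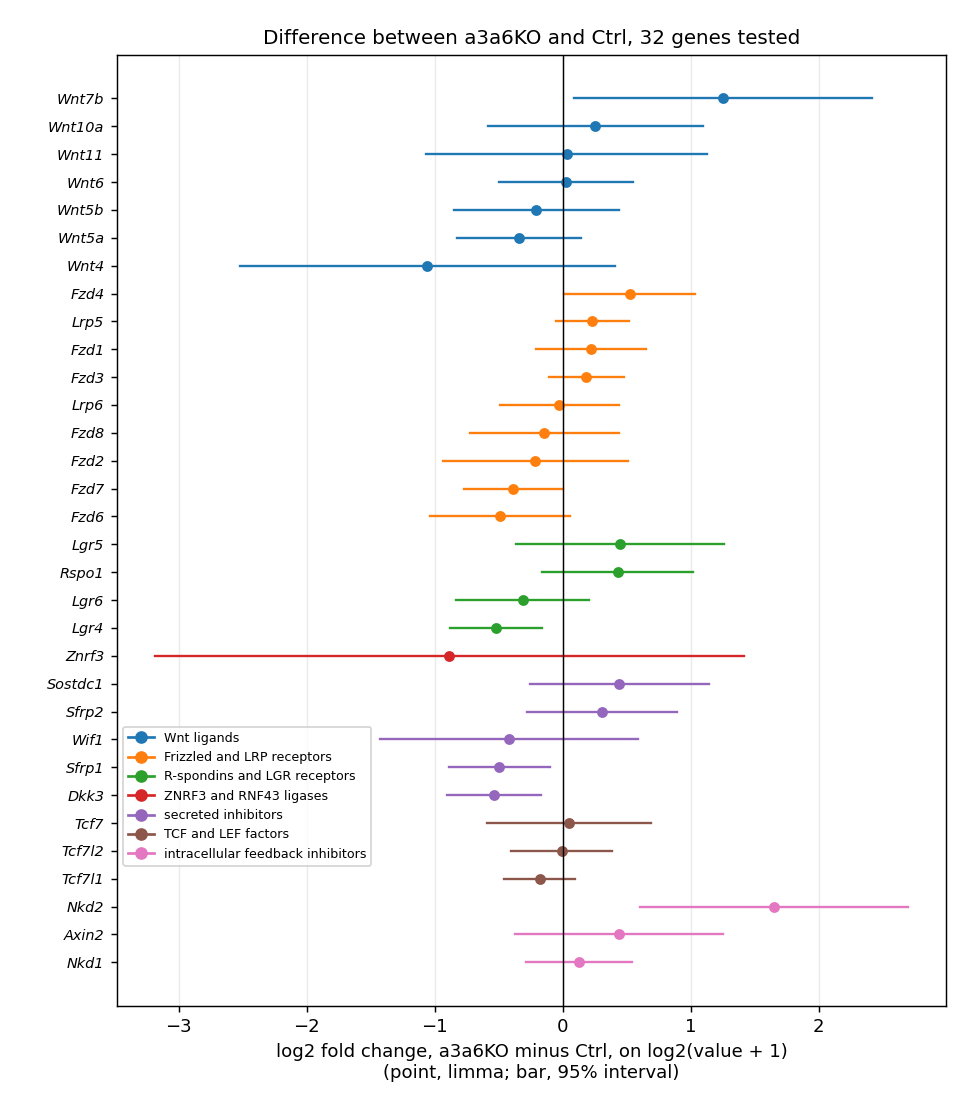
Log2 fold change, a3a6KO minus Ctrl on log2(value + 1), of the 32 tested genes by role, with limma's estimate as a point and its 95% interval as a bar (3 a3a6KO and 4 Ctrl libraries). Nkd2 has the highest estimate (1.65) and Wnt4 the lowest (−1.06), and the intervals of Lgr4, Dkk3, Sfrp1, Nkd2, Wnt7b and Fzd4 leave out 0 before any adjustment.

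Promoters are shown for the genes with non-overlapping groups that RefSeq's table holds, Lgr4, Fzd7 and Nkd2, and for Axin2, a widely used target gene of β-catenin. Each sequence is the 250 bases before the RefSeq start on GRCm38.p6, 5′ to 3′ on the gene's own strand, and Dkk3 was not matched. They lie at chr2:109917397-109917646 (plus strand), chr1:59481897-59482146 (plus strand), chr13:73847632-73847881 (minus strand) and chr11:108920099-108920348 (plus strand). Capitals mark a match to CTTTGAT or CTTTGTT, core motifs of TCF and LEF factors, on either strand; the motifs do not overlap each other here.
Lgr4: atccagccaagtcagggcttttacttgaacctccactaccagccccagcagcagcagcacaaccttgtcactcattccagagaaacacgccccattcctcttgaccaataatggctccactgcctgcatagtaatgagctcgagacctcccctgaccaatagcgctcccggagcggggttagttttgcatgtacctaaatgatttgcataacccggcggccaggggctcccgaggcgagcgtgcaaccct
Fzd7: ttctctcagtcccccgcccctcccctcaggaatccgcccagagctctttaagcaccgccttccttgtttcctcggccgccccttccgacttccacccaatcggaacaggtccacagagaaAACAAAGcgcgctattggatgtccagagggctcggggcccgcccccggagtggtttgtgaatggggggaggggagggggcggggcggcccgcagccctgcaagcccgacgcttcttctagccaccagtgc
Nkd2: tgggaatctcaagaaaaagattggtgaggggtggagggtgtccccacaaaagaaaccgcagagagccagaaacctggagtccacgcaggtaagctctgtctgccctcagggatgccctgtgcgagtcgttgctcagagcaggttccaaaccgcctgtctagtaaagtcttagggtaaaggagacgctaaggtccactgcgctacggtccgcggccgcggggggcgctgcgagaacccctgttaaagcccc
Axin2: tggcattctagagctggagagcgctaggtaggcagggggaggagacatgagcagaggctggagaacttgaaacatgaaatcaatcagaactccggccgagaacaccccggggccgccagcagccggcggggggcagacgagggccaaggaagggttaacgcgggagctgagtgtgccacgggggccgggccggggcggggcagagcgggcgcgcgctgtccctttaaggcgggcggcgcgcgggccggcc
The stretch before Fzd7 held CTTTGTT on the opposite strand, read as AACAAAG, and neither motif was in the other sequences. In the table's 32851 promoters, counted over these 250 bases, CTTTGAT occurred in 3.21% and CTTTGTT in 5.03%. Of the 20 listed genes matched there with 28 promoters, Wnt11 and Wnt5b held CTTTGAT, and Fzd7 and Tcf7l2 held CTTTGTT. GC content was 55.6% before Lgr4, 65.2% before Fzd7, 58.4% before Nkd2 and 69.2% before Axin2, against a median of 52.4%. These matches are letters in a window, with no measurement of binding.

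The ligands present were those of a mixed set, with Wnt10a and Wnt6 leading. Their levels over all libraries were 382 and 371 normalised counts per kb, followed by Wnt5b (97.1), Wnt11 (88.7), Wnt4 (58.5), Wnt5a (22.7) and Wnt7b (19.2). Wnt6 and Wnt10a are neighbours on chromosome 1, at 74771891 to 74785319 and 74791516 to 74804173 (mm10, plus strand), and lie 6.196 kb apart. Of 7 ligands, 4 had fold changes above 0 and 3 below, with 0 called and 1 at an unadjusted p under 0.05.

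Wnt7b (chromosome 15, 85535445 to 85581821), a ligand that can signal through β-catenin, had 121, 105 and 164 normalised counts in a3a6KO replicates 1 to 3 and 30.1, 33.9, 49.6 and 154 in Ctrl replicates 1 to 4. The a3a6KO libraries all lay above 3 of the Ctrl libraries, while Ctrl replicate 4 lay among them, so the groups overlapped. Its log2 fold change was 1.25 (SE 0.52, 95% interval 0.09 to 2.42, limma adjusted p = 0.758).

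Wnt4 (chromosome 4, 137277508 to 137299501), the ligand that luminal cells make under progesterone, had 347, 131 and 46.3 in a3a6KO and 125, 248, 458 and 363 in Ctrl. The libraries spread widely within each group and overlapped, with a3a6KO replicate 3 lowest and Ctrl replicate 3, at 9.90 times its value, highest. This gave a log2 fold change of −1.06 (SE 0.65, interval −2.52 to 0.41, limma adjusted p = 0.808). It was −0.33 without a3a6KO replicate 3, −1.77 without a3a6KO replicate 1 and −0.47 with library weights.

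Wnt10a, a ligand of the β-catenin branch, had 696, 650.1 and 1959 in a3a6KO and 811, 618, 764 and 1098 in Ctrl. A single library, a3a6KO replicate 3, stood above all others, and the other 2 mutant libraries lay within the Ctrl range. Its fold change of 0.25 on the log2 scale (SE 0.37, limma adjusted p = 0.915) turned to −0.26 without that library. Wnt11, a ligand best known for signalling without β-catenin, was likewise highest in a3a6KO replicate 3, with 196, 200.4 and 874 in a3a6KO against 353, 281, 249.7 and 415 in Ctrl. Its log2 fold change of 0.03 (SE 0.48) became −0.68 without that library.

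Wnt6 averaged 821 ± 194 (SD, n = 3) in a3a6KO and 806 ± 185 (SD, n = 4) in Ctrl, a log2 fold change of 0.03 (interval −0.50 to 0.55). Wnt5a, the main ligand outside the β-catenin branch, averaged 152 ± 4.58 in a3a6KO and 197 ± 48.7 in Ctrl (−0.34, interval −0.83 to 0.14), and its relative Wnt5b 239.9 ± 86.1 in a3a6KO and 271 ± 69.2 in Ctrl (−0.21, interval −0.85 to 0.44). Wnt5b overlaps Fbxl14 on the opposite strand, whose mean was 36.0% of its own, and whether reads were counted by strand is not given in the sources used here. In all, 18 listed genes overlap other gene models. The highest overlapping mean was 29.3% of the gene's own for Znrf3, 17.4% for Lgr5 and 15.8% for Tcf7. Of the 12 other Wnt ligands of the genome that were looked up, 11 did not pass the filter, and Wnt9a averaged 22.0 ± 10.8 in a3a6KO and 14.8 ± 3.01 in Ctrl. Wls and Porcn, which carry and lipid-modify Wnt proteins for secretion, had log2 fold changes of −0.04 (SE 0.13) and 0.13 (SE 0.14).

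Among the receptors, Fzd7 stood well above the rest. It had 2037 ± 411 normalised counts per kb in a3a6KO and 2632 ± 244 in Ctrl, against 340.2 for Fzd1 and 233 for Fzd2 over all libraries. Lrp5, Fzd3, Fzd8, Lrp6, Fzd4 and Fzd6 followed at 90.9, 68.1, 55.7, 35.9, 35.0 and 14.7 per kb. Of the 9 receptors, 4 had fold changes above 0 and 5 below, 0 were called and 1, Fzd4, had an unadjusted p under 0.05.

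Fzd7 (chromosome 1, 59482147 to 59486947), a Frizzled known from mammary basal and stem cells, had 10082, 10518 and 7099 normalised counts in a3a6KO and 12326, 13248, 11434 and 10697 in Ctrl. Every a3a6KO library lay below every Ctrl library, by a narrow margin for a3a6KO replicate 2 against Ctrl replicate 4. On the log2 scale the fold change was −0.39 (SE 0.17, interval −0.77 to 0.00097, limma adjusted p = 0.785), and it was −0.21 without a3a6KO replicate 3, the lowest library.

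Fzd4 (chromosome 7, 89404366 to 89410110), a receptor with a known role in blood vessels, had 221, 318 and 313 in a3a6KO and 139.6, 212, 201 and 241 in Ctrl. The groups overlapped through a3a6KO replicate 1, which lay below Ctrl replicate 4, while a3a6KO replicates 2 and 3 lay above all controls. The log2 fold change was 0.52 (SE 0.23, interval 0.01 to 1.04, limma adjusted p = 0.774). The endothelial marker sum was also lowest in a3a6KO replicate 1 among the mutants (10588, against 14140.4 and 15077) and highest in Ctrl replicate 4 among the controls (8233, against 5366 to 6386), and its part in the Fzd4 values was not tested.

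The remaining receptors had estimates from −0.49 to 0.23 on the log2 scale, with 0 at an unadjusted p under 0.05. Fzd1 averaged 1556 ± 323 (SD, n = 3) in a3a6KO and 1332 ± 216 (SD, n = 4) in Ctrl (log2 fold change 0.22), Fzd3 935 ± 64.1 in a3a6KO and 824 ± 80.5 in Ctrl (0.19), and Fzd6 57.3 ± 10.2 in a3a6KO and 80.9 ± 14.7 in Ctrl (−0.49). Fzd2 averaged 761 ± 206 in a3a6KO and 921 ± 381 in Ctrl (−0.21), and Fzd8 324 ± 131 in a3a6KO and 339.7 ± 34.0 in Ctrl (−0.14). Lrp5 and Lrp6 are the co-receptors that start the β-catenin branch. Lrp5 averaged 970.5 ± 115 in a3a6KO and 822 ± 21.0 in Ctrl, a log2 fold change of 0.23 (interval −0.05 to 0.52), and Lrp6 478 ± 6.62 in a3a6KO and 499.9 ± 142 in Ctrl, a log2 fold change of −0.03 (interval −0.49 to 0.44). The 10 other receptors and binding partners that passed the filter, among 12 looked up, gave 6 fold changes above 0 and 4 below with 0 called. They included the membrane proteoglycans Gpc4, with 3670.4, 2521 and 2879 in a3a6KO and 2214, 2051, 2265 and 2762 in Ctrl (log2 fold change 0.37, SE 0.16, limma adjusted p = 0.785), and Gpc3 with 0.40 (SE 0.20, limma adjusted p = 0.789).

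Lgr4 carried most of the LGR transcript and was lower in all 3 a3a6KO libraries than in any control. Its level was 427 ± 6.25 normalised counts per kb in a3a6KO (SD, n = 3) and 621 ± 118 in Ctrl (SD, n = 4), while Lgr6 and Lgr5 had 86.8 and 6.11 over all libraries. Lgr4 (chromosome 2, 109917647 to 110014261), the widely expressed R-spondin receptor, had 2469, 2524 and 2539 normalised counts in a3a6KO and 4351, 4145, 3026 and 3086 in Ctrl. The mutant libraries were close to each other, and the controls fell into a higher pair (replicates 1 and 2) and a lower pair (replicates 3 and 4). The log2 fold change was −0.52 (SE 0.16, interval −0.88 to −0.16), short of the threshold after adjustment (limma adjusted p = 0.631, DESeq2 adjusted p = 0.209), and it ran from −0.60 to −0.43 when single libraries were left out.

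Rspo1 (chromosome 4, 124986430 to 125009093), a secreted R-spondin, had 148, 134 and 80.1 in a3a6KO and 81.3, 78.4, 80.8 and 109 in Ctrl. Replicates 1 and 2 of a3a6KO lay above all controls and replicate 3 lay among them, so the groups overlapped (log2 fold change 0.43, SE 0.26, limma adjusted p = 0.804). Lgr5, a marker of stem cells in several tissues, averaged 73.8 ± 25.8 in a3a6KO and 54.4 ± 20.5 in Ctrl (0.45, SE 0.36), and its relative Lgr6 514 ± 72.0 in a3a6KO and 655 ± 184 in Ctrl (−0.31, SE 0.23). Rspo3 had 0 reads in every a3a6KO library and 0, 2, 6 and 4 in Ctrl. A count of 0 allows up to 3 reads, or 2.49 to 5.34 normalised counts in the libraries that had 0 reads. A difference was therefore not detectable at this depth.

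The ligase that R-spondins act on was barely measured. Znrf3 (chromosome 11, 5276329 to 5444847) had 15.7, 3.96 and 1.78 normalised counts in a3a6KO and 1.0, 10.5, 31.2 and 21.2 in Ctrl, from 1 to 34 reads. Its highest libraries were Ctrl replicates 3 and 4 and a3a6KO replicate 1, and the log2 fold change of −0.89 had an SE of 1.02 (limma adjusted p = 0.894). The feature that names Rnf43 together with 1110028F11Rik, outside the rule, had 400.2, 476 and 549.8 in a3a6KO and 703, 623, 510.5 and 554 in Ctrl (log2 fold change −0.33, SE 0.17, limma adjusted p = 0.789), and the reads of its 2 genes cannot be told apart.

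Secreted inhibitors included the highest gene of the list, Sostdc1, and a pair that was lower in a3a6KO before adjustment, Dkk3 and Sfrp1. Over all libraries their levels per kb were 3338 for Sostdc1, 352 for Dkk3, 204 for Sfrp1, 181 for Wif1, 55.4 for Sfrp2 and 3.32 for Dkk2. Of the 5 tested, 2 had fold changes above 0 and 3 below, and 0 were called.

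Dkk3 (chromosome 7, 112116017 to 112159057), a divergent member of the Dickkopf family whose part in Wnt signalling is less clear than that of its relatives, had 936, 898 and 964 normalised counts in a3a6KO and 1753, 1201, 1394 and 1142 in Ctrl. All mutant libraries lay below all controls, and Ctrl replicate 1 was the highest. Relative to Ctrl, the log2 fold change was −0.54 (SE 0.16, interval −0.90 to −0.17, limma adjusted p = 0.619, DESeq2 adjusted p = 0.225), and it ran from −0.62 to −0.41 when single libraries were left out.

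Sfrp1 (chromosome 8, 23411500 to 23449630), which binds Wnt proteins outside the cell, had 820.2, 728 and 617 in a3a6KO and 781, 1182, 1014 and 1110.5 in Ctrl. The groups overlapped only through Ctrl replicate 1, which lay below a3a6KO replicate 1. The estimate was −0.49 on the log2 scale (SE 0.17, interval −0.89 to −0.10, limma adjusted p = 0.694).

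Sostdc1 (chromosome 12, 36314169 to 36318452), an inhibitor of both BMP and Wnt signalling, had 7539, 6665 and 6122 in a3a6KO and 2775, 4753, 8078 and 5680.3 in Ctrl. The mutant libraries lay inside the range of the controls, which was 2.91 times wide from Ctrl replicate 1 to Ctrl replicate 3. The log2 fold change was 0.44 (SE 0.31, interval −0.25 to 1.14, limma adjusted p = 0.830).

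Wif1, which binds Wnt proteins directly, averaged 341 ± 77.9 (SD, n = 3) in a3a6KO and 515 ± 298 (SD, n = 4) in Ctrl (−0.42, SE 0.44), with Ctrl replicates 1 and 2 highest at 592 and 892. Sfrp2 averaged 134 ± 32.3 in a3a6KO and 109 ± 26.7 in Ctrl (0.31, SE 0.26). Dkk2, an antagonist of LRP co-receptors, had 4.97, 44.8 and 3.56 in a3a6KO and 8.03, 3.23, 18.4 and 3.03 in Ctrl, so that a3a6KO replicate 2 alone held 34 of the 42 reads of its group. Of the 10 other secreted inhibitors looked up, 3 passed the filter, with log2 fold changes from −0.96 to 0.20 and 0 called, and Dkk4 and Sost were at 0 in all libraries.

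**Figure D3:**
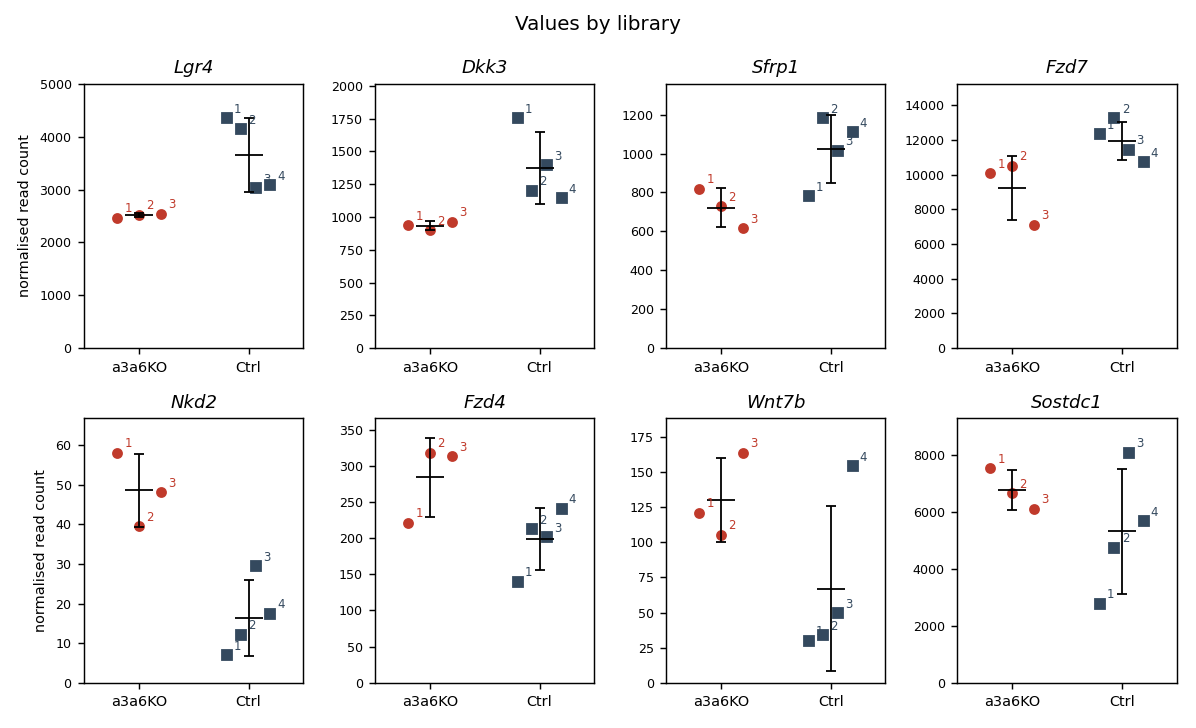
Normalised counts in each library for 8 genes, a3a6KO (circles, n = 3) left of Ctrl (squares, n = 4), numbered by replicate, with the group mean and SD as black lines. Lgr4, Dkk3 and Fzd7 do not overlap and are lower in a3a6KO, Nkd2 does not overlap and is higher, and Sfrp1, Fzd4, Wnt7b and Sostdc1 overlap.

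The TCF factors had small fold changes, with a median size without sign of 0.05 over the 3 tested and 0 called. Tcf7l2 and Tcf7l1, which bind DNA as partners of β-catenin or as repressors without it, had 141 and 142 normalised counts per kb over all libraries, Tcf7 had 20.5, and Lef1 had 0 reads in all 7, as did the 8 gene models that overlap it. Tcf7l2 had 1363, 1090.5 and 1213 in a3a6KO and 1216, 1453, 1363 and 932 in Ctrl, with the mutants inside the control range (log2 fold change −0.01, interval −0.40 to 0.38, limma adjusted p = 0.995). Tcf7l1 had 551, 512 and 495 in a3a6KO and 605, 566, 631 and 550.0 in Ctrl. Only a3a6KO replicate 1 and Ctrl replicate 4 overlapped, and the log2 fold change was −0.18 (SE 0.12, interval −0.46 to 0.10, limma adjusted p = 0.830). Tcf7 had 47.2, 46.2 and 71.2 in a3a6KO and 66.3, 42.8, 42.2 and 60.5 in Ctrl, which overlapped widely (0.05, interval −0.59 to 0.69, limma adjusted p = 0.980).

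The feedback inhibitors, which Wnt signalling itself can induce, all had fold changes above 0, with 0 of 3 called. Nkd2 (chromosome 13, 73819328 to 73847631), which binds Dishevelled inside the cell, had 58.0, 39.6 and 48.0 normalised counts in a3a6KO and 7.03, 12.1, 29.4 and 17.4 in Ctrl. Every mutant library lay above every control, although all 7 held few reads, 27 to 70 in a3a6KO and 7 to 32 in Ctrl. Its estimate of 1.65 on the log2 scale (SE 0.46, interval 0.60 to 2.70), about 3.14-fold on the log2(value + 1) scale, had the smallest p of the list and did not pass adjustment (limma adjusted p = 0.551), and DESeq2 gave it no adjusted p. It ran from 1.33 to 1.97 when single libraries were left out. Nkd1, its more abundant relative, had 613, 916 and 639 in a3a6KO and 652, 783, 556 and 631 in Ctrl, with a3a6KO replicate 2 highest and the rest mixed (0.13, SE 0.18, limma adjusted p = 0.913). Per kb over all libraries Nkd1 had 150.1 and Nkd2 6.26. Axin2 (chromosome 11, 108920345 to 108950779), a scaffold of the complex that degrades β-catenin and a common readout of the branch, had 48.1, 33.0 and 19.6 in a3a6KO and 27.1, 21.0, 23.0 and 21.2 in Ctrl. Replicates 1 and 2 of a3a6KO lay above all controls and replicate 3 below them (0.44, SE 0.36, interval −0.37 to 1.25, limma adjusted p = 0.858). With 11 to 58 reads per library, the interval leaves room for a change of either sign.

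The rest of the pathway held no call either. Of 92 further genes, 68 were tested, 38 with fold changes above 0 and 30 below, 0 were called in limma, and 2, Dact1 and Tle4, had an unadjusted p under 0.05 (2.94%, against the background of 6.32%). β-catenin itself, Ctnnb1, had 2712, 3492 and 4334 in a3a6KO and 3842, 3567, 2601 and 3781 in Ctrl, overlapping throughout (log2 fold change 0.02, interval −0.43 to 0.47, limma adjusted p = 0.990), and its sign turned in several alternatives. The 13 genes of β-catenin and its destruction complex had 6 fold changes above 0 and 7 below, the lowest being Axin1, a scaffold of that complex, with 694, 392 and 240.2 in a3a6KO and 516, 595, 752 and 641 in Ctrl (−0.62, SE 0.31, limma adjusted p = 0.789). Dact1, which binds Dishevelled, had 188, 158 and 299 in a3a6KO and 120.5, 129, 144 and 151 in Ctrl, with no overlap (0.61, SE 0.23, limma adjusted p = 0.738). Tle4, a co-repressor of TCF factors, had 331, 166 and 141 in a3a6KO and 245, 286, 364 and 439 in Ctrl, where a3a6KO replicate 1 lay among the controls (−0.72, SE 0.31, limma adjusted p = 0.785).

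Of 12 known Wnt target genes looked up, 10 were tested, 9 with fold changes above 0 and 1 below. Of these, 0 were called and 0 had an unadjusted p under 0.05. Among all 16889 genes tested, 8357 had fold changes above 0. The median of the 10 tested target genes was 0.18 on the log2 scale, against −0.004 for all genes tested. Ccnd1, which encodes cyclin D1, had 163, 173 and 190.4 in a3a6KO and 58.2, 108, 158 and 160.4 in Ctrl. The lowest mutant library lay just above the highest control, and Ctrl replicate 1 was the lowest (0.63, SE 0.34, limma adjusted p = 0.792). The planar cell polarity genes, which act in the branch without β-catenin, had 5 fold changes above 0 and 5 below among 10 tested. The cadherin Celsr1 had 34.8, 89.7 and 56.9 in a3a6KO and 144, 128, 60.6 and 93.8 in Ctrl (−0.84, SE 0.39, limma adjusted p = 0.785), and the formin Daam1 51.4, 18.5 and 55.2 in a3a6KO and 100.4, 84.0, 38.6 and 78.7 in Ctrl (−0.91, SE 0.46, limma adjusted p = 0.789), each with a control among the mutants.

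Several genes separated the libraries across the groups instead of between them, a pattern picked after the values were seen. Wnt4 and Znrf3, and outside the list the Wnt co-receptor Ryk, were high in Ctrl replicates 3 and 4 and in a3a6KO replicate 1. Ryk had 3641, 994 and 797 in a3a6KO and 841, 1050.3, 4262 and 3220.3 in Ctrl, and Dact3, a Dishevelled-binding protein, 354, 112 and 23.1 in a3a6KO and 177, 187, 353 and 285 in Ctrl. Wif1 and Fzd2 were highest in Ctrl replicates 1 and 2, Fzd2 with 1399 and 1041 there against 541 to 989 elsewhere.

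**Figure D4:**
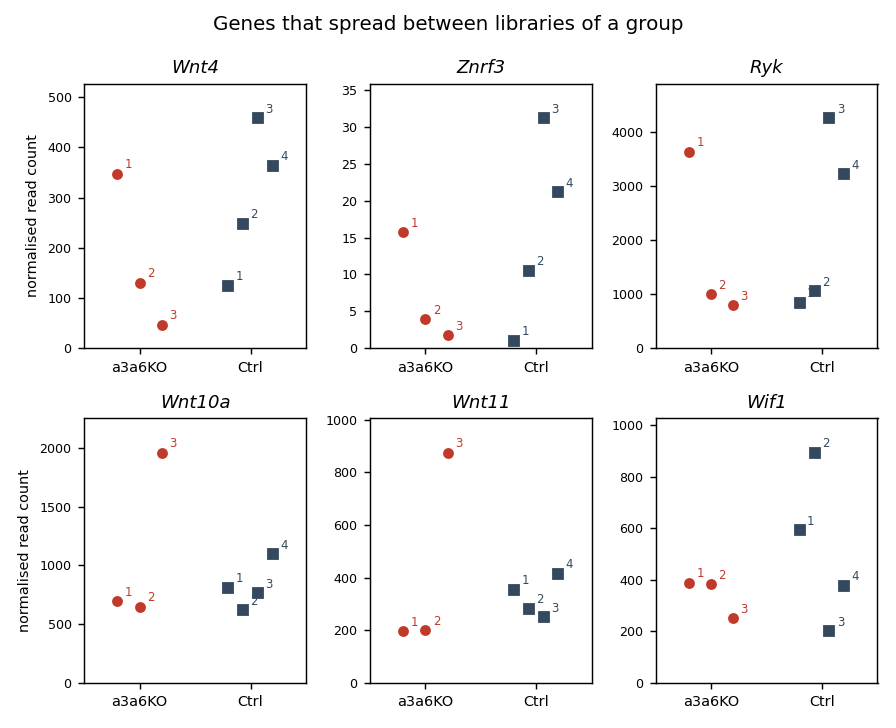
Normalised counts in each library for 6 genes that spread within the groups, a3a6KO (circles, n = 3) left of Ctrl (squares, n = 4), numbered by replicate. Wnt4, Znrf3 and Ryk are high in a3a6KO replicate 1 and Ctrl replicates 3 and 4, Wnt10a and Wnt11 in a3a6KO replicate 3, and Wif1 in Ctrl replicates 1 and 2.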

How the data were processed

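RNA was sequenced from sorted basal mammary cells of 3 a3a6KO and 4 Ctrl samples, grouped by their genotype label. Per the labels, libraries were made by the SMARTer v4 protocol. The deposited table holds 1 signal value per gene model and library, gene counts that the authors divided by a DESeq2 size factor. STAR 2.4.0, FastQC, Picard and SAMtools and build mm10 are named per the submitters' processing notes, which name neither a read counter nor a strand setting. Whole reads were recovered for every value within 0.01 of a read, and even numbers made up 61.8% to 63.8% of the counts from 1 to 20 reads. The reason for this excess was not tested. If some fragments were counted as a pair of reads, the printed reads and floors overstate the number of independent fragments. Counting floors of 3 reads cover counting error only.

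Groups were compared in R 4.3.3 with limma 3.58.1 on log2(value + 1), using its trended empirical Bayes, for the 16889 genes that reached 10 in 3 or more libraries. P-values are two-sided and the threshold was 0.05 after Benjamini-Hochberg adjustment. A fold change is a3a6KO minus Ctrl, and adding 1 to each value draws the fold changes of low genes towards 0. Against DESeq2, limma's estimates for low genes differed in either direction. Nkd2 had 1.65 with limma and 1.56 with DESeq2, and Axin2 had 0.44 with limma and 0.58 with DESeq2. Alternatives were edgeR 4.0.16 and DESeq2 1.42.0 on recovered reads, other pseudocounts, filters and scalings, library weights, no trend and leaving out each library. Scripts were tested on simulated data. Values per kb use merged GENCODE exons on GRCm38. Promoter sequences are RefSeq's, on GRCm38.p6.

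Values of each library are given for the 2 genes of each role with the smallest unadjusted p. They are also given for genes with an unadjusted p under 0.05 or a DESeq2 call. Such values are given too for the gene of each role with the highest mean, not scaled by exon length. Of the other pathway genes, up to 8 with the smallest p and a mean of at least 50 are named, and Ctnnb1. Others with such values were chosen after these were seen. Members and lists were chosen with earlier results of these data known.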

Additional observations from a re-analysis of the deposited data

Results flagged for a closer look

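In groups of 4 libraries, a value far from the other 3 is picked by its gap relative to the range of the group, and chance picks about 1 in 20 groups. Wnt7b had 154 normalised counts in Ctrl replicate 4, where the other controls had 30.1 to 49.6. Fzd1 had 1009 in Ctrl replicate 1, where the other controls had 1407 to 1459. Rspo1 had 109 in Ctrl replicate 4, where the other controls had 78.4 to 81.3.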

How the results depend on the processing

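The limma count of 0 genes past the adjusted threshold became 77 with DESeq2, and none of the 77 was on the list. Of the list, 6 genes had an unadjusted p under 0.05, and leaving out single libraries gave 3 (Ctrl replicate 2) to 8 (Ctrl replicate 3). Shares over all genes are not given for those fits. Fold changes were followed for 42 features: the 32 tested genes, the shared Rnf43 feature, Ctnnb1 and the 8 other pathway genes picked by smallest p. Over 17 alternatives, 31 of 42 kept their sign, Lgr4, Dkk3, Sfrp1, Fzd7, Nkd2, Wnt7b and Fzd4 among them. The lowest adjusted p was 0.195. The genes named were picked from the main fit and the alternatives reuse its libraries, so their kept signs are no independent support. With library weights the log2 fold change turned to −0.36 for Wnt11, 0.086 for Fzd8, −0.016 for Tcf7, 0.0014 for Tcf7l2 and −0.14 for Ctnnb1, which had −0.041 under quantile normalization. Leaving out single libraries also turned signs, with ranges of −0.46 to 0.076 for Wnt5b, −0.13 to 0.24 for Wnt6, −0.26 to 0.54 for Wnt10a, −0.68 to 0.39 for Wnt11, −0.44 to 0.018 for Fzd2, −0.44 to 0.16 for Fzd8, −0.15 to 0.15 for Lrp6, −0.15 to 0.16 for Tcf7, −0.14 to 0.074 for Tcf7l2, −0.056 to 0.23 for Nkd1 and −0.15 to 0.19 for Ctnnb1. The library behind the turn was a3a6KO replicate 3 for Wnt5b, Wnt10a and Fzd8 and Ctrl replicate 1 for Fzd2. Among estimates that kept their sign, leaving out single libraries gave wide ranges, for Wnt4 from −1.77 to −0.33, Znrf3 from −1.72 to −0.31, Wif1 from −0.80 to −0.084, Rspo1 from 0.26 to 0.70, Sostdc1 from 0.17 to 0.68, Axin2 from 0.14 to 0.77 and Axin1 from −1.01 to −0.25. The cause was not tested for any of these. No paired analysis was possible because the labels give no replicate numbers, and those used here only follow accession order. Depth limits Znrf3, Axin2 and Nkd2, which had 1 to 70 reads per library.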
